A study of Homo sapiens with 36 samples.

Results

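The apoptosome and caspase genes measured here were APAF1, CYCS, CASP2, CASP6, CASP8, CASP9 and CASP10. Their members were chosen by name, as every probe set that the array annotation gives to 1 of these 7 genes, and 19 of the 22215 probe sets tested met that rule. APAF1 was represented by 3 probe sets, CYCS by 1, CASP2 by 5, CASP6 by 2, CASP8 by 2, CASP9 by 2 and CASP10 by 4, and no probe set named a member together with another gene. By mean log2 signal over all arrays, 12 of the 19 lay in the upper 60% of all probe sets, and the dimmer 7 were 1 of APAF1, 2 of CASP2, 1 of CASP8 and all 4 of CASP10.

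RNA was taken from U2OS ER-HA-E2F1 cells, a human osteosarcoma line infected with the retrovirus pBabe-Puro-ER-HA-E2F1 and selected in puromycin, and hybridised to 36 Affymetrix expression arrays. The fusion of E2F1 with the hormone-binding part of the estrogen receptor enters the nucleus when 4-hydroxytamoxifen (OHT) is given, and every group carried it, so no group lacked the transgene. Cells received an NFYB siRNA from Ambion, an NFYB siRNA from Dharmacon, a negative control siRNA from Dharmacon or a negative control siRNA from Sigma, were starved of serum from 18 h after transfection for 24 h, and were then collected at 0, 4 or 8 h of 80 nM OHT. Each siRNA and time had 3 biological replicates, so that NFYB siRNA cells and control siRNA cells had 6 arrays each at 0, 4 and 8 h. The labels do not say whether replicates were separate cultures, and p-values therefore measure the spread between these arrays. Times of 4 and 8 h differ from 0 h in OHT itself and in further hours without serum as well as in E2F1 activity, and these cannot be told apart.

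Cytochrome c, the product of CYCS, carries electrons between complexes III and IV of the respiratory chain, and when it leaves the mitochondria it binds APAF1. APAF1 then assembles into the apoptosome, a wheel-shaped complex that recruits and activates the initiator caspase CASP9, which cleaves executioner caspases. CASP8 and CASP10 are the initiators recruited to death receptors through FADD, CASP2 is activated on a separate platform that contains PIDD1, and CASP6 is an executioner that cleaves nuclear lamins. APAF1 is a known E2F1 target gene, and NFYB is a subunit of NF-Y, the trimeric factor that binds CCAAT boxes in promoters.

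Because the experiment varied an E2F factor and a CCAAT-binding factor, the 250 bases before the annotated start of each gene were searched on both strands for CCAAT and for the E2F word TTNNCGC with C or G at each N. RefSeq sequences (GRCh38.p14) were held for 6 of the 7 genes, at 10 start sites. Over 35116 such windows of RefSeq, 32% held CCAAT, 9.53% held it at 2 or more places and 10.9% held an E2F word. The windows of CYCS, of APAF1 and of the first CASP2 start site are shown, being those of the gene that differed between siRNA arms, of the gene most raised with OHT and of another gene whose window held both kinds of word. Capitals mark CCAAT or its complement ATTGG and an E2F word or its complement, 5′ to 3′ on the strand of the gene.
CYCS, chr7:25125261-25125510, minus strand: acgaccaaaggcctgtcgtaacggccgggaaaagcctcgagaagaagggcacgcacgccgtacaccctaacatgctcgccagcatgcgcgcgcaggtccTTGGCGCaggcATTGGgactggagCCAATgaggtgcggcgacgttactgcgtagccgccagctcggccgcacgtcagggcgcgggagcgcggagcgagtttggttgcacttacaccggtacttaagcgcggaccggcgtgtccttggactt
APAF1, chr12:98645040-98645289, plus strand: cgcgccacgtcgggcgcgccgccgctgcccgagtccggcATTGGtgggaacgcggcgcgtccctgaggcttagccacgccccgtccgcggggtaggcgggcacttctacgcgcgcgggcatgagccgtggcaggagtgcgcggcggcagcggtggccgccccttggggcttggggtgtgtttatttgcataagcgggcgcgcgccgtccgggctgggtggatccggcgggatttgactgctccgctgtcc
CASP2 start site 1, chr7:143288101-143288350, plus strand: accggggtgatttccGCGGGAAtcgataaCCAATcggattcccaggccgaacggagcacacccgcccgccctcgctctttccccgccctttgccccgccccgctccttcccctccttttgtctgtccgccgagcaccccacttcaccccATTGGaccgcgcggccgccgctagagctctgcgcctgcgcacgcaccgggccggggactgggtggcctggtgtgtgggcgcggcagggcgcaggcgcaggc
The CYCS window held CCAAT on the minus strand 140 to 136 bases before the start and on the plus strand 127 to 123 bases before it, with TTGGCGC 151 to 145 bases before the start. APAF1 held 1 CCAAT, on the minus strand 211 to 207 bases before the start, and no E2F word. CASP2 start site 1 held CCAAT at 2 places, 221 to 217 and 101 to 97 bases before the start, and TTCCCGC on the minus strand 235 to 229 bases before it. Of the other windows, CASP8 start site 2 held CCAAT at 2 places and CASP9 start site 2 at 1 place, and the windows of CASP6, of CASP2 start site 2, of CASP8 start sites 1 and 3 and of CASP9 start site 1 held neither kind of word. A word in a window is a description of the sequence and not evidence of binding.

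NFYB itself, which checks the knockdown, averaged 66.56 ± 10.7, 112.9 ± 38.8 and 126.7 ± 46.8 units of MAS5 signal at 0, 4 and 8 h in NFYB siRNA cells and 187.1 ± 15.7, 437.8 ± 38.9 and 649.2 ± 59.5 in control siRNA cells (SD, n = 6 arrays each), with no overlap at any time. Of the osteoblast and mesenchymal markers, VIM, SPARC, COL1A1, CDH2, COL5A2 and ALPL (median 88.68) lay in the upper 60% of probe sets by signal. The osteoblast factor RUNX2 (median 15.07) and COL1A2 (22.29) were dim. All 3 leukocyte and all 4 endothelial markers measured lay outside the upper 60%, and of 4 epithelial markers EPCAM was within it, at 216.5 to 475.5. The summed signal of the mesenchymal list ran from 23577 to 28101 in NFYB siRNA cells and from 23843 to 29233 in control siRNA cells at 8 h. Log2 signals of arrays of 1 condition correlated at r = 0.951 to 0.962 and those of different conditions at up to r = 0.959, and the number of arrays limits the precision of what follows.

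Between 0 and 8 h of OHT at least 1 probe set of each of the 7 genes was called as changed in control siRNA cells. APAF1 rose, CASP8 and CASP9 fell, CASP2 and CYCS fell by less, and 1 probe set each of CASP6 and CASP10 rose. The calls of CASP6 and CASP10 rested on probe sets with the suffix x_at, which marks probes that can bind other transcripts. Both calls were lost when some single arrays were left out. In all, 5 of the 19 probe sets rose and 8 fell (limma, adjusted p under 0.05 over all probe sets), against 20.3% of all probe sets that rose and 29.6% that fell, together 49.9%, so that a call was common in this comparison. The groups did not overlap for 8 of the 19, against 33.8% of all probe sets. The median log2 difference of the 19 was -0.33, beside -0.10 over all probe sets. At 4 h, 3 had risen, all of them APAF1, and 3 had fallen, 1 each of CYCS, CASP2 and CASP8, where 16.1% of all probe sets rose and 23.3% fell, together 39.3%. The groups did not overlap for 5 of the 19 at that time, against 23.6% of all probe sets. In these bulk samples less RNA per cell and fewer cells that express a gene cannot be told apart.

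**Figure D1:**
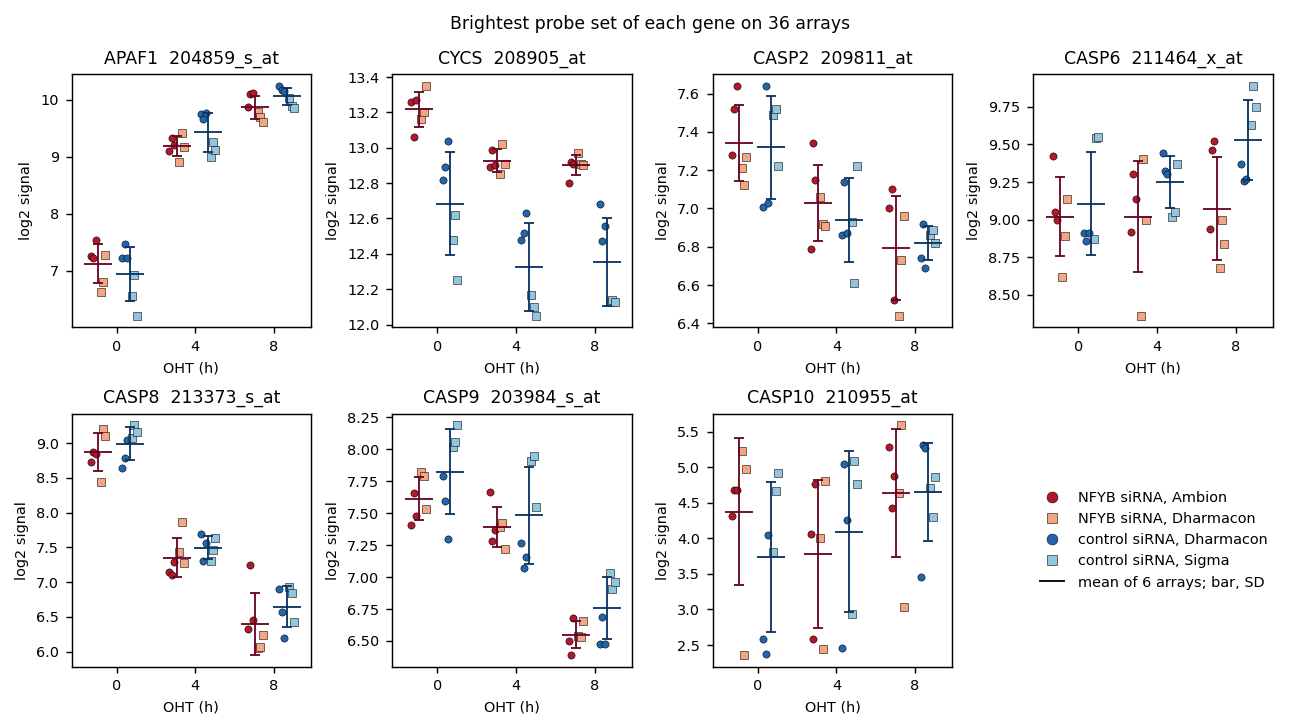
Log2 MAS5 signal of the brightest probe set of each of the 7 genes against hours of OHT, with each of the 36 arrays as a point coloured by siRNA, NFYB siRNA left of control siRNA at each time, and the mean and SD of 6 arrays as bars. APAF1 climbs and CASP8, CASP9 and CASP2 decline with time in both arms, CYCS lies higher with NFYB siRNA at every time, and CASP10 scatters over several log2 units.

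APAF1, the scaffold of the apoptosome, gave the largest rise among the members. On its brightest probe set, 204859_s_at, the lowest, median and highest signals of control siRNA cells were 74.26, 136 and 177.8 at 0 h, 510.7, 710.3 and 867.7 at 4 h and 921.8, 1088 and 1208 at 8 h. The times did not overlap, and the lowest array at 4 h lay well above the highest at 0 h. The rise was 2.48 ± 0.166 on the log2 scale at 4 h (estimate ± SE, limma adjusted p = 2.01e-15) and 3.11 ± 0.166 at 8 h, or 8.65-fold (adjusted p = 1.77e-18). Most of the 8 h rise was thus present at 4 h. The other APAF1 probe sets gave 1.69 ± 0.214 (211554_s_at, adjusted p = 1.52e-08) and 2.90 ± 0.453 (211553_x_at, adjusted p = 9.58e-07) at 8 h, and all 6 arrays at 8 h exceeded every array at 0 h on each of the 3. The dim probe set 211553_x_at, whose suffix marks probes that can bind other transcripts, averaged 52.93 ± 11.4 at 8 h and 9.418 ± 7.4 at 0 h (SD, n = 6).

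CYCS, which encodes the ligand of APAF1, was a bright probe set that moved the other way. Control siRNA cells averaged 6695 ± 1310, 5190 ± 879 and 5301 ± 925 at 0, 4 and 8 h (SD, n = 6). The log2 difference from 0 h was -0.36 ± 0.107 after 4 h (limma adjusted p = 0.00626), and after 8 h it was -0.33 ± 0.107 (adjusted p = 0.00922). Of the 6 arrays at 8 h, 3 lay below every array at 0 h. Much of the spread came from the siRNA, since the Dharmacon control averaged 7757 ± 621, 5963 ± 323 and 6104 ± 447 and the Sigma control 5634 ± 714, 4417 ± 186 and 4497 ± 20.9 (SD, n = 3). Within each control siRNA the 8 h response was nearly the same, -0.35 ± 0.08 with Dharmacon and -0.32 ± 0.08 with Sigma (estimate ± SE). CYCS has many processed pseudogenes in the human genome, and binding of their transcripts to this probe set was not tested.

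CASP9, the initiator that the apoptosome activates, fell at 8 h on both of its probe sets. On 203984_s_at the lowest, median and highest signals of control siRNA cells were 157.1, 240.5 and 291.7 at 0 h, 134.7, 170.7 and 247.1 at 4 h and 89.22, 111.5 and 130.9 at 8 h. The groups overlapped at 4 h and were separate at 8 h. The difference was -0.34 ± 0.148 at 4 h (adjusted p = 0.0668) and -1.07 ± 0.148 at 8 h, a 2.1-fold fall (adjusted p = 1.02e-07), so that the change came mainly after 4 h. The second probe set, 210775_x_at, fell by 0.89 (adjusted p = 0.00456) and also had all 6 arrays at 8 h below every array at 0 h.

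CASP8, the initiator of death receptor signalling, gave the largest fall. Its brightest probe set, 213373_s_at, ran from a lowest of 398.4 through a median of 533.2 to a highest of 614.2 at 0 h in control siRNA cells, over 158.3, 183.6 and 208.4 at 4 h and 73.49, 104.8 and 122.3 at 8 h. No 2 times overlapped. The log2 difference was -1.50 ± 0.166 at 4 h (adjusted p = 1.44e-09) and -2.35 ± 0.166 at 8 h, a 5.09-fold fall (adjusted p = 6.35e-15). The dim probe set 207686_s_at gave -1.40 ± 0.607 at 4 h, short of the threshold (adjusted p = 0.066), and fell by 2.46 at 8 h (adjusted p = 0.000756). It averaged only 11.46 ± 7.79 at 8 h, against 47.97 ± 5.85 at 0 h.

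CASP10, the other death receptor initiator, was dim on all 4 probe sets, with signals between 1.785 and 48.06. Only 210708_x_at passed the test, with 24.68 ± 10.7 at 8 h against 9.543 ± 6.74 at 0 h in control siRNA cells (log2 difference 1.46 ± 0.545, adjusted p = 0.024), and 4 of the 6 arrays at 8 h lay above every array at 0 h. By siRNA the difference was 2.19 with the Dharmacon control and 0.73 with the Sigma control (SE 0.75 each). Whether the responses of these siRNAs differed was not tested. The call was lost when any of 4 single arrays was left out, Dharmacon control replicate 2 or Sigma control replicate 1 at 0 h or Dharmacon control replicate 1 or 3 at 8 h, with adjusted p up to 0.0606. The others gave 0.92 ± 0.547, -0.16 ± 0.653 and -0.19 ± 0.414, and at this brightness their 95% intervals spanned about 2 log2 units or more on 210955_at and 205467_at, from -0.19 to 2.03 and from -1.48 to 1.16.

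CASP2 is a long-prodomain caspase that acts apart from the apoptosome. Its 3 brighter probe sets fell together at 8 h, by 0.50 (209811_at, adjusted p = 0.00204), 0.41 (208050_s_at, adjusted p = 0.0183) and 0.50 (34449_at, adjusted p = 0.0263). On 209811_at control siRNA cells averaged 161.7 ± 29.8, 123.7 ± 18.7 and 113 ± 6.86 at 0, 4 and 8 h, and all 6 arrays at 8 h lay below those at 0 h. The 2 dim probe sets gave -0.46 ± 0.532 and -0.45 ± 0.477, with means of 10.28 and 5.308 at 8 h, and did not pass the test. The call on 34449_at was lost when any of 4 single arrays was left out, with adjusted p up to 0.124, and the call on 208050_s_at without Dharmacon control replicate 2 at 0 h, at 0.0508. The arrays that mattered for 34449_at were Sigma control replicates 2 and 3 at 0 h and replicate 1 at 8 h, and Dharmacon control replicate 3 at 8 h. The 4 h call on 209811_at (-0.38, adjusted p = 0.0231) was likewise lost without any of 4 arrays, Dharmacon control replicate 2 or Sigma control replicate 1 or 2 at 0 h or Sigma control replicate 2 at 4 h, with adjusted p up to 0.0735.

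CASP6, the executioner among the members, was called on 1 of its 2 probe sets. On 211464_x_at control siRNA cells averaged 564.1 ± 141, 613.5 ± 72.3 and 748.6 ± 141 at 0, 4 and 8 h, and the 8 h difference of 0.42 ± 0.163 just passed the test (adjusted p = 0.0296). On 209790_s_at it was 0.09 ± 0.157 (adjusted p = 0.684), so the probe sets of CASP6 differed in their call. The call on 211464_x_at was lost in 7 of 36 fits that each left out 1 array, with adjusted p up to 0.0876. The 7 were the 3 Dharmacon control arrays and Sigma control replicate 1 at 0 h, and the 3 Sigma control arrays at 8 h.

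**Figure D2:**
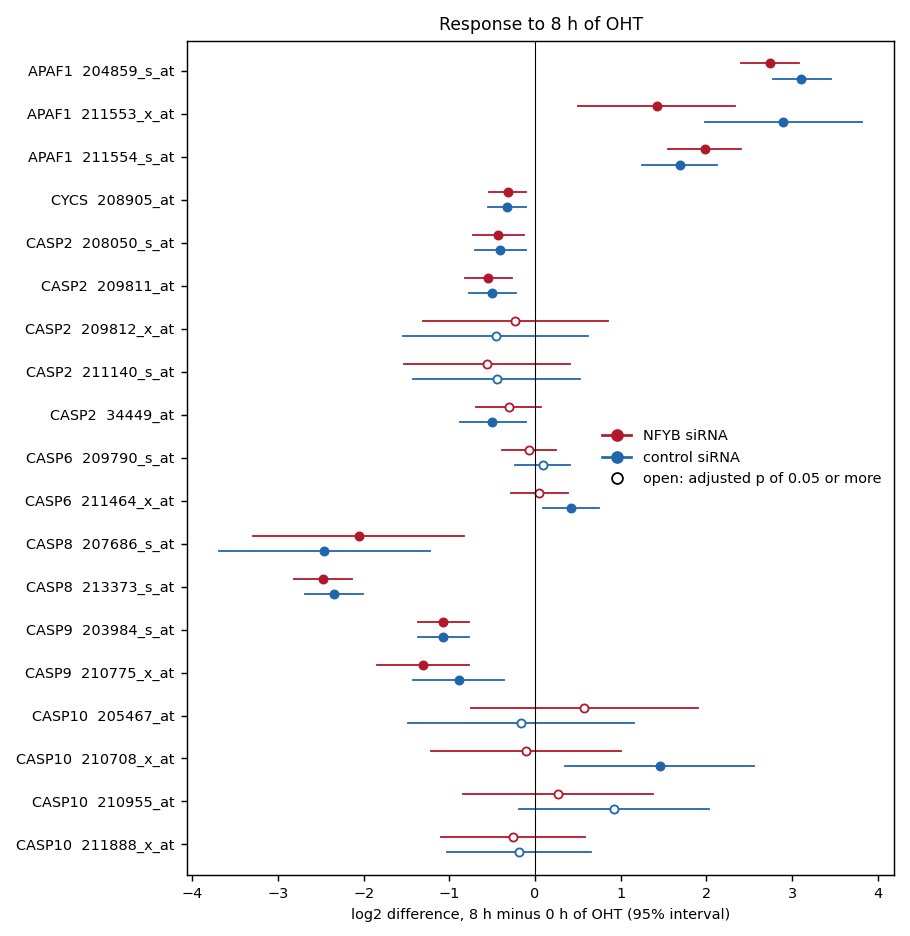
Log2 difference between 8 h and 0 h of OHT for each of the 19 probe sets, with 95% intervals from the limma fit, NFYB siRNA (red) above control siRNA (blue) and open symbols where the adjusted p was 0.05 or more. The 3 APAF1 probe sets lie right of 0 and those of CASP8 and CASP9 left of it in both arms, and the intervals of the dim CASP10 probe sets are wide.

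The same genes were then followed in NFYB siRNA cells. There 3 of the 19 probe sets rose and 7 fell at 8 h, against 18.5% and 29.4% of all probe sets, 47.9% together, and the groups did not overlap for 6, against 33.3%. APAF1 204859_s_at averaged 142.6 ± 31.9, 584.4 ± 71.2 and 941 ± 137 at 0, 4 and 8 h, a rise of 2.74 ± 0.166 or 6.69-fold at 8 h (adjusted p = 8.1e-17). CASP8 213373_s_at averaged 474.6 ± 88, 166.2 ± 35.3 and 88.1 ± 32.5, a fall of 2.47 or 5.55-fold (adjusted p = 1.55e-15). CASP9 203984_s_at fell by 1.07 (adjusted p = 1.16e-07), CASP2 209811_at by 0.55 (adjusted p = 0.000783) and CYCS by 0.32 (adjusted p = 0.013). For CYCS, with its tighter arrays in this arm, all 6 at 8 h lay below every array at 0 h. CASP6 and CASP10 had no probe set that passed in this arm, where CASP6 211464_x_at gave 0.05 ± 0.163 and CASP10 210708_x_at -0.11 ± 0.545.

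The difference of the 8 h responses, NFYB siRNA minus control siRNA, was tested directly. None of the 19 probe sets passed (limma, adjusted p under 0.05), where 0.203% of all probe sets did, and 2 of the 19 had an unadjusted p under 0.05, both of them dim: APAF1 211553_x_at (-1.48, 95% interval -2.78 to -0.18, adjusted p = 0.608) and CASP10 210708_x_at (-1.57, -3.13 to 0.00, adjusted p = 0.706). For APAF1 204859_s_at the difference was -0.37 with an interval of -0.85 to 0.10, so a response smaller by that lower bound is within the error. APAF1 211554_s_at went the other way, at 0.29 with an interval of -0.32 to 0.91. The intervals were -0.29 to 0.32 for CYCS, -0.42 to 0.43 for CASP9 203984_s_at, -0.44 to 0.34 for CASP2 209811_at and -0.60 to 0.35 for CASP8 213373_s_at. For CASP6 211464_x_at, called in control siRNA cells and not in NFYB siRNA cells, the difference was -0.37 with an interval of -0.84 to 0.10 (adjusted p = 0.79), and the arms are not shown to differ in this response.

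NFYB siRNA was next compared with control siRNA at each time. CYCS was higher with NFYB siRNA at 0, 4 and 8 h, and it was the only member called at any of them: 1 of 19 each time, where 3.58%, 2.93% and 4.65% of all probe sets were called and 1.58%, 1.48% and 2.18% were called higher. In NFYB siRNA cells the lowest, median and highest CYCS signals were 8555, 9609 and 10476 at 0 h, 7378, 7681 and 8321 at 4 h and 7127, 7686 and 8011 at 8 h. In control siRNA cells they were 4881, 6768 and 8443, then 4243, 5157 and 6325, then 4476, 5103 and 6578. Every NFYB siRNA array lay above every control siRNA array of its time, a pattern that 2.50%, 2.16% and 3.45% of all probe sets showed in either direction. The log2 difference was 0.53 ± 0.107 at 0 h (adjusted p = 0.00181), 0.60 ± 0.107 at 4 h (adjusted p = 0.000461) and 0.55 ± 0.107 at 8 h, or 1.46-fold (adjusted p = 0.00129). It was thus present before OHT and of nearly one size at the 3 times. The fit counted every array of both siRNAs of an arm as a replicate, so its SE and p-values do not take the siRNA as the unit.

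The size of the CYCS difference depended on the control siRNA. At 8 h it was 0.33 against the Dharmacon control alone (adjusted p = 0.00252) and 0.77 against the Sigma control alone (adjusted p = 7.33e-08), with 0.30 and 0.77 at 0 h and 0.39 and 0.82 at 4 h. Against both controls at 8 h the difference was 0.52 with the Ambion NFYB siRNA alone, which missed the threshold (adjusted p = 0.0573), and 0.57 with the Dharmacon NFYB siRNA alone (adjusted p = 0.015). The Ambion NFYB siRNA alone also missed it at 0 h (0.51, adjusted p = 0.0654) and passed at 4 h (0.60, adjusted p = 0.0276). Leaving out replicate 2 kept the direction but took the call away both at 4 h, where the difference was 0.56 (adjusted p = 0.0733), and at 8 h, where it was 0.52 (adjusted p = 0.104), as leaving out replicate 1 did at 0 h (0.52, adjusted p = 0.0685). The methods' t-test on linear signal, with its p-values adjusted here and called under 0.05, called CYCS at 4 h only. Its adjusted p was 0.0961, 0.0478 and 0.0504 at 0, 4 and 8 h. The gene lists of the study used cutoffs on p and on fold change instead.

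**Figure D3:**
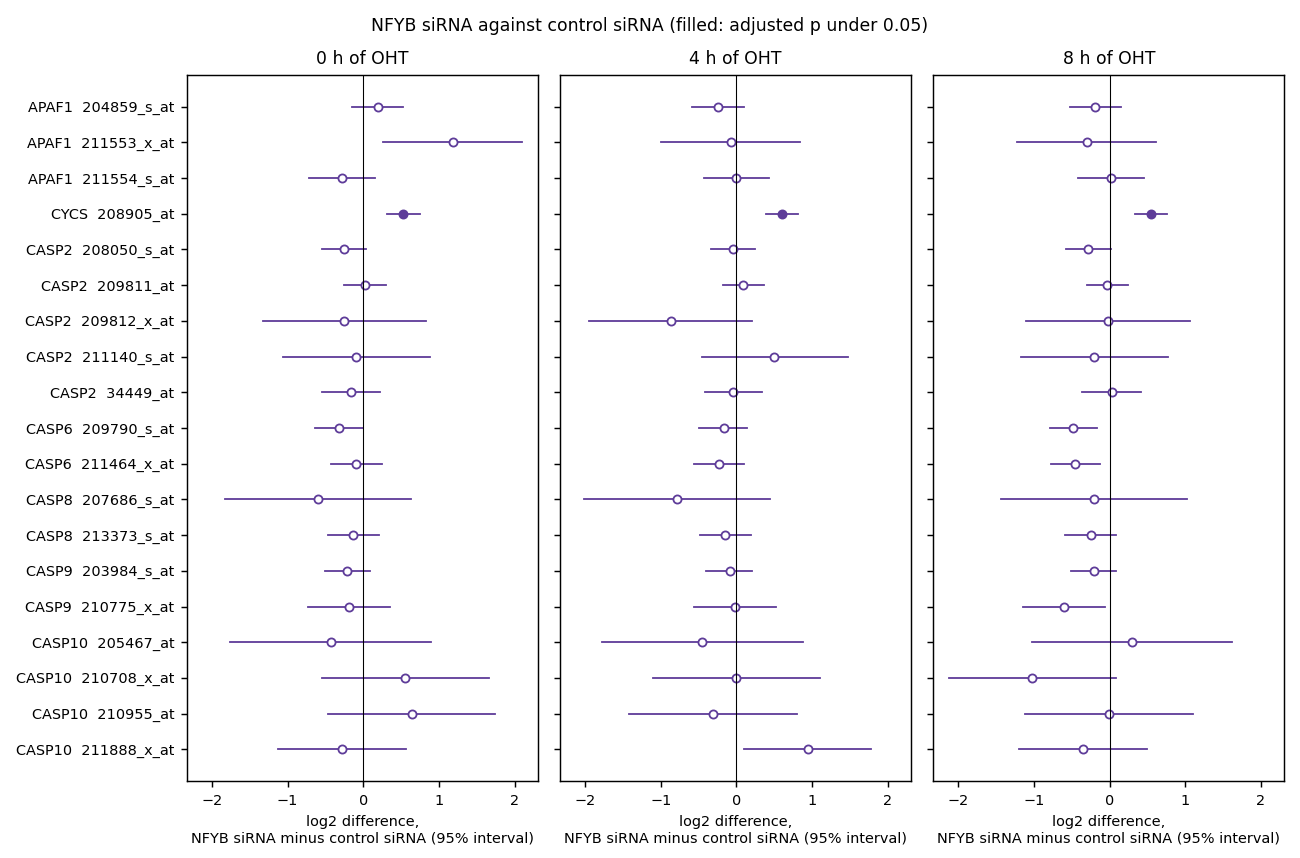
Log2 difference between NFYB siRNA and control siRNA for each of the 19 probe sets at 0, 4 and 8 h of OHT, with 95% intervals from the limma fit and filled symbols where the adjusted p was under 0.05. CYCS is the only filled symbol in each panel, and both CASP6 probe sets lie left of 0 at 8 h.

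CASP6 came closest to the threshold among the rest. At 8 h 209790_s_at had 255.1, 387.9 and 405.3 as lowest, median and highest in NFYB siRNA cells and 440, 507.1 and 566.7 in control siRNA cells. The groups did not overlap, yet the difference of -0.48 ± 0.157 fell short (adjusted p = 0.0728), and 211464_x_at gave -0.45 ± 0.163 (adjusted p = 0.111). On that probe set 4 of the 6 arrays of NFYB siRNA cells lay lower than all of the controls. By siRNA the 209790_s_at difference at 8 h was -0.33 with Ambion and -0.62 with Dharmacon (adjusted p = 0.357 and 0.00748). At 0 and 4 h it was -0.32 and -0.17 on this probe set. Over 36 fits that each left out a single array, the adjusted p of its 8 h difference ran from 0.0241 to 0.223. The difference was called without Ambion NFYB siRNA replicate 3 or Dharmacon NFYB siRNA replicate 1 at 4 h, arrays outside the comparison.

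APAF1 204859_s_at differed between arms by 0.19, -0.24 and -0.19 at 0, 4 and 8 h, each with an SE of 0.166 and an adjusted p of 0.562 or more. CASP9 203984_s_at gave -0.21, -0.09 and -0.21, CASP8 213373_s_at -0.13, -0.15 and -0.25, and CASP2 209811_at 0.02, 0.09 and -0.03. None of these passed, and their 95% intervals at 8 h were -0.52 to 0.15, -0.51 to 0.09, -0.59 to 0.09 and -0.30 to 0.25 for APAF1, CASP9, CASP8 and CASP2 in that order. On the other probe sets, the dim APAF1 211553_x_at gave 1.18 at 0 h (95% interval 0.26 to 2.10, adjusted p = 0.163), which was called with the Ambion NFYB siRNA alone (adjusted p = 0.0342) and without Dharmacon NFYB siRNA replicate 1 at 0 h (adjusted p = 0.0144), and then -0.07 and -0.30 at 4 and 8 h. APAF1 211554_s_at gave -0.28, 0.00 and 0.02 at 0, 4 and 8 h. CASP9 210775_x_at gave -0.60 at 8 h (95% interval -1.14 to -0.06, adjusted p = 0.221), after -0.19 and -0.02 at 0 and 4 h. With a single array left out, its 8 h difference ran from -0.79 to -0.23. Whether the probe sets of CASP9 differed in size was not tested. CASP2 208050_s_at gave -0.25, -0.04 and -0.28, and CASP2 34449_at -0.16, -0.04 and 0.03. The dim probe sets of CASP2, CASP8 and CASP10 ran from -1.02 (CASP10 210708_x_at at 8 h, adjusted p = 0.352) to 0.94 (CASP10 211888_x_at at 4 h, adjusted p = 0.27), and none was called. The median difference of the 19 probe sets was -0.16, -0.07 and -0.20 at 0, 4 and 8 h, beside 0.00, -0.01 and -0.03 over all probe sets.

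The siRNAs of an arm were compared with each other over the 3 times, because a difference between arms rests on both. The Dharmacon and Sigma controls differed on 3 of 19 probe sets, against 25.6% of all probe sets: APAF1 204859_s_at was 0.53 higher with Dharmacon (adjusted p = 7.55e-06), CYCS 0.45 higher (adjusted p = 3.37e-09) and CASP9 203984_s_at lower (-0.53, adjusted p = 4.81e-06). The NFYB siRNAs of Ambion and Dharmacon also differed on 3, against 17.1%: Ambion was higher on APAF1 204859_s_at by 0.28 (adjusted p = 0.0204) and on CASP6 209790_s_at and 211464_x_at by 0.39 and 0.31 (adjusted p = 0.012 and 0.0466). For CYCS they differed by -0.03 ± 0.046 (adjusted p = 0.745). On APAF1 204859_s_at and CASP9 203984_s_at the gap between the controls exceeded the gap between the arms at 8 h.

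**Figure D4:**
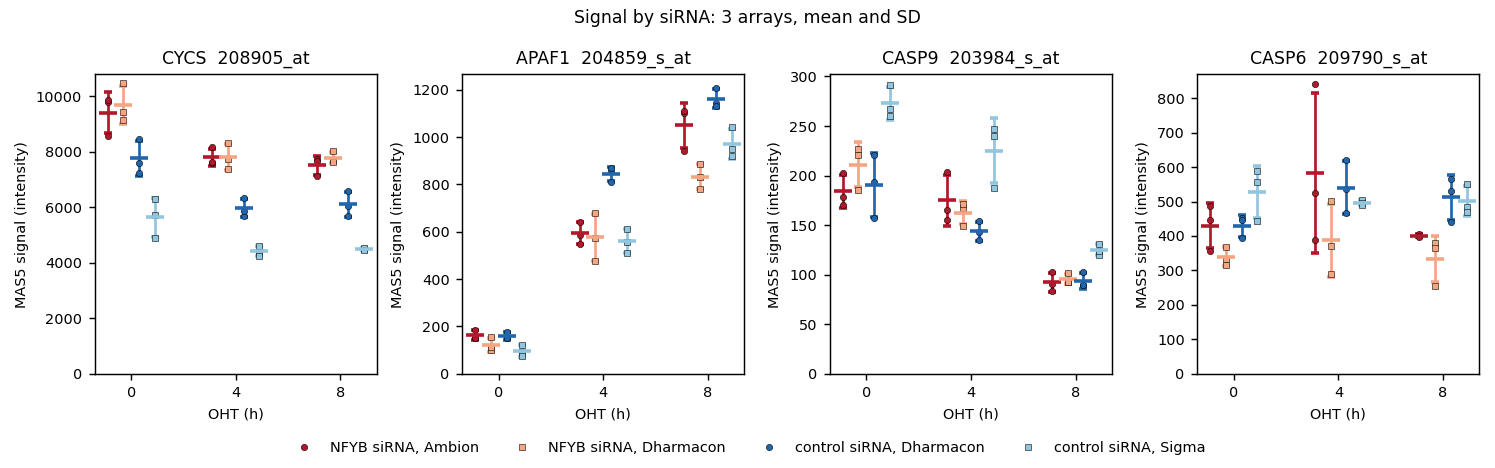
MAS5 signal (intensity, axes from 0) of CYCS, APAF1, CASP9 and CASP6 against hours of OHT for each siRNA, in the order NFYB Ambion, NFYB Dharmacon, control Dharmacon, control Sigma, with the 3 arrays as points and their mean and SD as bars. The Sigma control stands apart from the Dharmacon control for CYCS, APAF1 and CASP9 at every time.

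By siRNA, APAF1 204859_s_at rose within 8 h by 2.69 with Ambion NFYB siRNA, 2.80 with Dharmacon NFYB siRNA, 2.87 with the Dharmacon control and 3.36 with the Sigma control (SE 0.146 each). Its 8 h signals were 1049 ± 95.8, 832.6 ± 53, 1162 ± 40.5 and 971.3 ± 64 in that order (SD, n = 3), so the Ambion NFYB siRNA mean lay between the control means. On 211554_s_at the order differed: at 8 h the Dharmacon NFYB siRNA gave 302.9 ± 9.6 and the Ambion NFYB siRNA 211.5 ± 20.2, against 276 ± 20.8 and 227.9 ± 26 with the Dharmacon and Sigma controls. CASP9 203984_s_at at 8 h was 92.33 ± 9.43 and 95.57 ± 5.11 with the Ambion and Dharmacon NFYB siRNAs, against 93.87 ± 8.02 with the Dharmacon control and 125 ± 5.51 with the Sigma control. The CASP8 213373_s_at response at 8 h was -2.14 and -2.80 with the Ambion and Dharmacon NFYB siRNAs, against -2.27 and -2.43 with the Dharmacon and Sigma controls (SE 0.208 each).

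Genes that work with the members were counted from lists, with the brightest probe set of each gene. Over the brightest probe sets of all 11963 genes, 21.1% rose and 34.3% fell at 8 h in control siRNA cells, 33.7% fell at 8 h in NFYB siRNA cells, and 2.71% were higher with NFYB siRNA at 8 h. These shares take in dim genes as well as bright ones, and shares among genes as bright as a list were not computed. Calls were commoner among bright probe sets. With the upper 60% by signal alone, 9937 were called at 8 h in control siRNA cells, where 11090 were over all probe sets. Of the cytochrome c electron transfer partners, subunits of complexes III and IV, 13 of 14 measured fell and none rose at 8 h in control siRNA cells, against the 34.3% of all genes that fell. The median log2 difference of the list was -0.36, beside -0.10 over all probe sets. UQCRC2, a core subunit of complex III, fell by 0.57 (adjusted p = 3.08e-11), and COX6B1 and COX6C of complex IV fell by 0.51 and 0.40. In NFYB siRNA cells 10 of 14 fell. With NFYB siRNA at 8 h 3 of 14 were higher and none lower, against 2.71% of all genes that were higher, while with each gene as the mean of its probe sets 4 were higher and 1 lower. On the brightest probe sets, COX6C averaged 7590 ± 386 in NFYB siRNA cells and 6050 ± 485 in control siRNA cells (0.33, adjusted p = 0.000412), COX6A1 was 0.23 higher (adjusted p = 0.0072) and COX6B1 0.25 higher (adjusted p = 0.0438). At 0 and 4 h none of the 14 was called, where 1.96% and 1.81% of all genes were higher and 2.37% and 1.77% lower. The list medians were 0.07 and 0.14 at those times, beside 0.00 and -0.01 over all probe sets. Whether CYCS differed from these genes was not tested.

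Of 9 measured adaptors and modulators of initiator caspases, 1 rose and 6 fell at 8 h in control siRNA cells, against 21.1% and 34.3% of all genes, with a list median of -0.51 beside -0.10 over all probe sets. By means of each gene's probe sets 2 rose and 5 fell. FADD, the adaptor that brings CASP8 and CASP10 to death receptors, averaged 307.1 ± 37.4 at 8 h and 1036 ± 76.8 at 0 h (-1.76, adjusted p = 2.51e-16). CFLAR, a catalytically inactive relative of CASP8 that competes for FADD, fell by 2.01 (adjusted p = 1.35e-16). DEDD, a death effector domain protein, rose by 0.88 (adjusted p = 9.01e-14). With NFYB siRNA at 8 h only PEA15, another death effector domain protein, was called (0.39, adjusted p = 0.0015), where 2.71% of all genes were higher. At 0 h and at 4 h 1 of the 9 was higher. Thus CASP8, FADD and CFLAR were all lower at 8 h.

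Apoptosome cofactors, mitochondrial release factors and inhibitors of apoptosis moved both ways, with 5 of 12 higher and 6 lower at 8 h in control siRNA cells, against 21.1% and 34.3% of all genes. By gene means 4 were higher and 4 lower. BIRC2, an IAP ubiquitin ligase, rose by 0.69 (adjusted p = 7.83e-10), NAIP, an IAP family member that also senses bacterial proteins, by 1.14 (adjusted p = 1.53e-07), and AIFM1, a mitochondrial flavoprotein, fell 2-fold (adjusted p = 4.26e-09). With NFYB siRNA 1 of the 12 was higher at 0 h, 1 at 4 h and none passed at 8 h (limma). By gene means 0, 1 and 0 were higher. Of all genes 1.96%, 1.81% and 2.71% were higher at those times and 2.37%, 1.77% and 2.57% lower. Of 15 caspase substrates 5 rose and 7 fell, against the same 21.1% and 34.3%, and by gene means 5 rose and 6 fell. They included rises of the kinases ROCK1 (1.24, adjusted p = 5.51e-17), STK4 (2.15, adjusted p = 9.58e-12) and PRKCD (1.73, adjusted p = 2.09e-11). With NFYB siRNA at 8 h BID, the BH3 protein that CASP8 cleaves, was the 1 called (0.30, adjusted p = 0.034), while gene means called 1 higher and 1 lower. At 0 h and at 4 h 1 of the 15 was higher. The 3 other caspases measured were CASP1, CASP4 and CASP5, and of these CASP4, an inflammatory caspase, fell by 1.11 (adjusted p = 1.75e-05). It averaged 209.7 ± 51.3 at 8 h and 464.1 ± 157 at 0 h.

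Patterns over the 12 means of siRNA and time were compared between genes as a description, since the points share siRNAs and times. Among the brightest probe sets of the members, APAF1 ran opposite to CASP8 (Pearson r = -0.95), CASP2 (-0.90) and CASP9 (-0.81), while CASP8 ran with CASP2 (0.93) and CASP9 (0.85). CYCS followed none of them closely, with r between -0.68 for CASP6 and 0.37 for CASP2. Among 11865 bright probe sets of other genes, those most like APAF1 were of RANBP2 (0.995), SMCHD1 (0.995) and QKI (0.993), and those most like CASP8 of MIEF1 (0.989), KIFBP (0.988) and UBAP1 (0.987). For CYCS they were DUSP22 (0.948), TPI1 (0.931) and CAV2 (0.926). In control siRNA cells their log2 differences after 8 h of OHT were -0.39, -0.12 and -0.76. Their differences with NFYB siRNA at 8 h were 0.32, 0.22 and 0.66. These genes were picked for likeness to CYCS over the same 12 means. That they share its signs largely follows from that choice and is no separate sign of likeness. CASP9 was most like NR2C2 (0.984), BCAT1 (0.981) and PAK2 (0.975), CASP2 like CEP162 (0.975), ARFGEF2 (0.974) and ZMYM4 (0.971), CASP6 like PAIP1 (0.912), SPTBN1 (0.899) and PLOD2 (0.890), and CASP10 like LIMCH1 (0.891), ERI2 (0.887) and SEC22A (0.880).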

How the data were processed

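The authors extracted RNA of 36 samples with the RNeasy kit, amplified and biotin-labeled it, hybridised it to Affymetrix arrays and normalized the scans with the MAS5 algorithm. The deposited values are linear MAS5 signals, in units of intensity, from Affymetrix Expression Console per the submitters' processing notes, and on each array they had a mean of 500 after trimming 2% at each end. Detection calls were not used here. Of 22277 probe sets, 62 controls were left out. The remaining 22215 name 1 gene (19064), several (1043) or none (2108) in the platform annotation. No column of per-sample values was left unused (0), and no arrays were identical.

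Log2 signals without an offset were fitted with limma 3.58.1 (R 4.3.3) as 6 groups of 6 arrays. Each group held both siRNAs of an arm at 1 time, as in the study. Variance moderation followed a trend on signal, tests were two-sided, p-values of all 22215 probe sets were adjusted together (Benjamini-Hochberg), and a change was called at an adjusted p under 0.05. The siRNAs of an arm were compared in a fit of 12 groups. The fit was tested on simulated data. Numbers came from Python 3.11.15, pandas 2.3.3 and numpy 2.4.6.

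The members and the gene lists were chosen with earlier results of these data known. All probe sets of the members are described. For each list up to 3 called genes with the smallest adjusted p are named for the 8 h response of control siRNA cells and for NFYB siRNA at 8 h, and for each member the 3 genes with the highest Pearson r among bright probe sets that name 1 gene. Gene lists were counted over the brightest probe set of each gene. Alternatives left out single arrays or all arrays with 1 replicate number, used each siRNA alone, blocked on the replicate number, treated siRNA as random, fitted 12 groups or only the groups compared, dropped the trend, kept the upper 60% by signal, normalized by quantiles, added an offset of 16, or ran the methods' t-test on linear signal.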

Additional observations from a re-analysis of the deposited data

Results flagged for a closer look

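In 15 of 114 groups of 6 arrays (19 probe sets by arm and time), 1 array lay far from the other 5. Chance flags about 5% of groups whose values come from 1 normal population. Each group here mixed both siRNAs of an arm, so no excess over chance is shown by the 15. Of the brighter probe sets, APAF1 211554_s_at had 25.36 in Dharmacon NFYB siRNA replicate 3 at 0 h, where the other 5 ran from 65.57 to 86.33. CASP6 209790_s_at had 255.1 in Dharmacon NFYB siRNA replicate 1 at 8 h, against 365.7 to 405.3 in the others, and it is the probe set whose arms did not overlap at that time. CASP8 213373_s_at had 152.4 in Ambion NFYB siRNA replicate 2 at 8 h, above 66.28 to 87.17 in the others. CASP2 208050_s_at was flagged in 3 groups, at 79.35 in Dharmacon NFYB siRNA replicate 1 at 4 h (others 122.7 to 133.9), at 170.1 in Dharmacon control replicate 2 at 0 h (others 130.1 to 143) and at 80.93 in Dharmacon control replicate 3 at 4 h (others 119.9 to 150.6). CASP9 210775_x_at had 95.64 in Dharmacon control replicate 3 at 0 h (others 140.3 to 165.4) and 47.27 in Dharmacon control replicate 1 at 8 h (others 71.07 to 89.33). The other flags fell on dim probe sets. CASP2 209812_x_at had 5.977 and 3.467 in Dharmacon NFYB siRNA at 0 h (replicate 1) and 8 h (replicate 3), 41.92 in Sigma control replicate 1 at 4 h and 1.923 in Dharmacon control replicate 3 at 8 h. CASP2 211140_s_at had 3.128 in Dharmacon NFYB siRNA replicate 3 at 4 h and 2.178 in Sigma control replicate 1 at 0 h, and CASP10 210955_at had 5.139 in Dharmacon NFYB siRNA replicate 2 at 0 h.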

How the results depend on the processing

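No called result changed direction under any of the alternatives. For NFYB siRNA against control siRNA, the count of member probe sets called was 1 at each time, and it moved under several settings. At 0 h it was 1 with the Ambion NFYB siRNA alone, with APAF1 211553_x_at in place of CYCS, 2 with the Dharmacon NFYB siRNA alone, 3 against the Sigma control alone, 0 with the methods' t-test, and 0 to 2 when a replicate number or an array was left out. At 4 h it was 2 against the Dharmacon control alone and 0 to 1 with a replicate or an array left out. At 8 h it was 2 with the upper 60% of probe sets and with only the groups compared, 3 with 12 groups, 0 with the Ambion NFYB siRNA alone, 3 with the Dharmacon NFYB siRNA alone, 3 against the Sigma control alone, 0 with the methods' t-test, and 0 to 2 with a replicate or an array left out. The 8 h response in control siRNA cells, 13 probe sets, came to 8 with either control siRNA alone and to 9 to 13 with a replicate or an array left out. For the siRNAs of NFYB compared, 3 probe sets became 0 to 1 with a replicate left out. The counts for 4 h in control siRNA cells (4 to 7), for 8 h in NFYB siRNA cells (8 to 10) and for the difference of responses (0) stayed within these ranges with a replicate or an array left out. Replicate numbers showed little pairing of the arrays. Deviations of arrays with the same number correlated at a mean r of 0.0135 (-0.187 to 0.288), beside -0.00678 for different numbers. Of 198 pairs with the same number 29 were over 0.1, and 16 of 36 arrays correlated best with their own number. Whether 16 exceeds chance was not tested. With the replicate block CYCS gave an adjusted p of 0.0029, 0.000794 and 0.00209 at 0, 4 and 8 h, and no member comparison's count moved by over 1.5 times.

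Over all probe sets, 796, 651 and 1032 were called for NFYB siRNA at 0, 4 and 8 h. These became 2503, 2284 and 2953 with 12 groups, 484, 432 and 621 with siRNA as a random block, 1452, 1292 and 1764 with the Dharmacon NFYB siRNA alone, 1741, 1617 and 1812 against the Dharmacon control alone, 196, 163 and 455 with the methods' t-test and as few as 222, 145 and 163 with a replicate left out. With only the groups compared they were 477 and 383 at 0 and 4 h, against the Sigma control alone 1332 at 0 h, and with the Ambion NFYB siRNA alone 397 and 555 at 4 and 8 h. The difference of responses, 45 probe sets, ran from 2 with the Ambion NFYB siRNA alone to 290 with 12 groups, with 17 with only the groups compared, 86 with siRNA as a random block, 235 with the Dharmacon NFYB siRNA alone, 3 to 8 with a replicate left out and 22 to 46 with an array left out. The causes were not tested. Signals of 1 to 50 units, as on the CASP10 probe sets, carried SEs of 0.414 to 0.653 and limit what could be seen there.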
